A study of Mus musculus with 6 samples.

Results

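The genes described here are 34 genes that neurons use to build their microtubules, neurofilaments, growth cones and motors, together with the neuronal ELAV RNA-binding proteins, and they were read as markers of neurons in general in the embryonic hindbrain. They were taken by gene symbol from the annotation of the array, which gave 82 of its 45276 probes for 33 of the 34 genes and no probe for the neurofilament gene Nefh. Probes of 31 genes, 66 in all, passed the detection filter, and for each of these 31 genes the probe used was above background on all 6 arrays, so that no gene entered through 1 group alone. The single probes of Tubb2a and Nefl were above background on 0 of 6 arrays. Their difference between the groups says nothing about these 2 genes.

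The tissue was rhombomere 1, the anterior end of the hindbrain, from ICR (CD-1) mouse embryos at E12.5. Control pools came from embryos with En1-cre and 1 floxed Gata2 allele (Gata2 flox/+), although their titles call them wildtype, and mutant pools came from embryos with En1-cre and 2 floxed alleles (Gata2 flox/flox). All embryos therefore carried the recombinase and at least 1 floxed allele, and none was treated. En1 drives the recombinase in the midbrain and rhombomere 1. Each group had 3 pools of 6 dissected pieces, and each pool was hybridised to 1 Illumina BeadChip, which reads RNA as the brightness of beads with gene probes; the number of arrays limits the precision. The arrays are called control 5R, 6R and 7R and mutant 1R, 2R and 3R after their column names.

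Newborn neurons replace the dividing cell's shape with an axon and dendrites. Microtubules made of alpha- and beta-tubulin fill these processes, doublecortin and the classical microtubule-associated proteins stabilise them, and stathmins bind free tubulin and favour disassembly. Neurofilaments set the calibre of the axon, CRMP proteins and membrane proteins such as Gap43 act in the growth cone at its tip, and kinesins carry cargo along it. At E12.5 rhombomere 1 holds dividing progenitors along the ventricle and postmitotic neurons outside them.

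On each array 19388 to 20407 probes were above background, and the raw median intensity was 69.8 to 76.7. The Gata2 probe did not pass the test, with 10.53 ± 0.16 in controls and 10.89 ± 0.17 in mutants (SD, n = 3; adjusted p = 0.412), and where the probe lies relative to the deleted sequence was not stated. Of 6 rhombomere 1 markers, En1, En2, Gbx2 and Fgf8 were above background on all arrays and Pax2 and Pax5 did not pass the detection filter. The 4 measured ones differed by -0.25 to 0.67 (mutant minus control, log2), and 0 passed. The midbrain marker Otx2 was above background on all 6 arrays too, with log2 means of 8.33 in controls and 8.34 in mutants. With each gene centred on its mean over the arrays, the 3 measured midbrain and caudal hindbrain markers averaged -0.35, 0.031 and 0.39 on mutants 1R, 2R and 3R. On controls 5R, 6R and 7R they averaged -0.026, -0.033 and -0.016. These markers were mostly dim, with a median log2 level of 5.23.

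None of the 31 measured genes passed the test between control and mutant rhombomere 1. With limma and Benjamini-Hochberg adjustment over all genes tested, 0 of 31 passed the threshold of 0.05, where 0.171% of 10524 tested genes did, and at an unadjusted p under 0.05 there were 2 of 31 (6.45%), where 8.83% of all genes tested reached it. Differences subtract the control mean from the mutant mean of log2 normalized intensity, n is 3 pools per group, and an interval is limma's 95% interval for 1 gene. The differences ran from -0.44 to 0.23, and 25 of the 31 were smaller than 0.2 in size. The intervals of 25 genes lay within 0.5 of 0, and those of all 31 lay within 1, with outer bounds of -0.76 for Stmn4 and 0.60 for Basp1. The other 6 genes, whose intervals reached beyond 0.5, were Stmn4, Map1b, Nefm, Basp1, Dpysl3 and Kif3a.

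**Figure D1:**
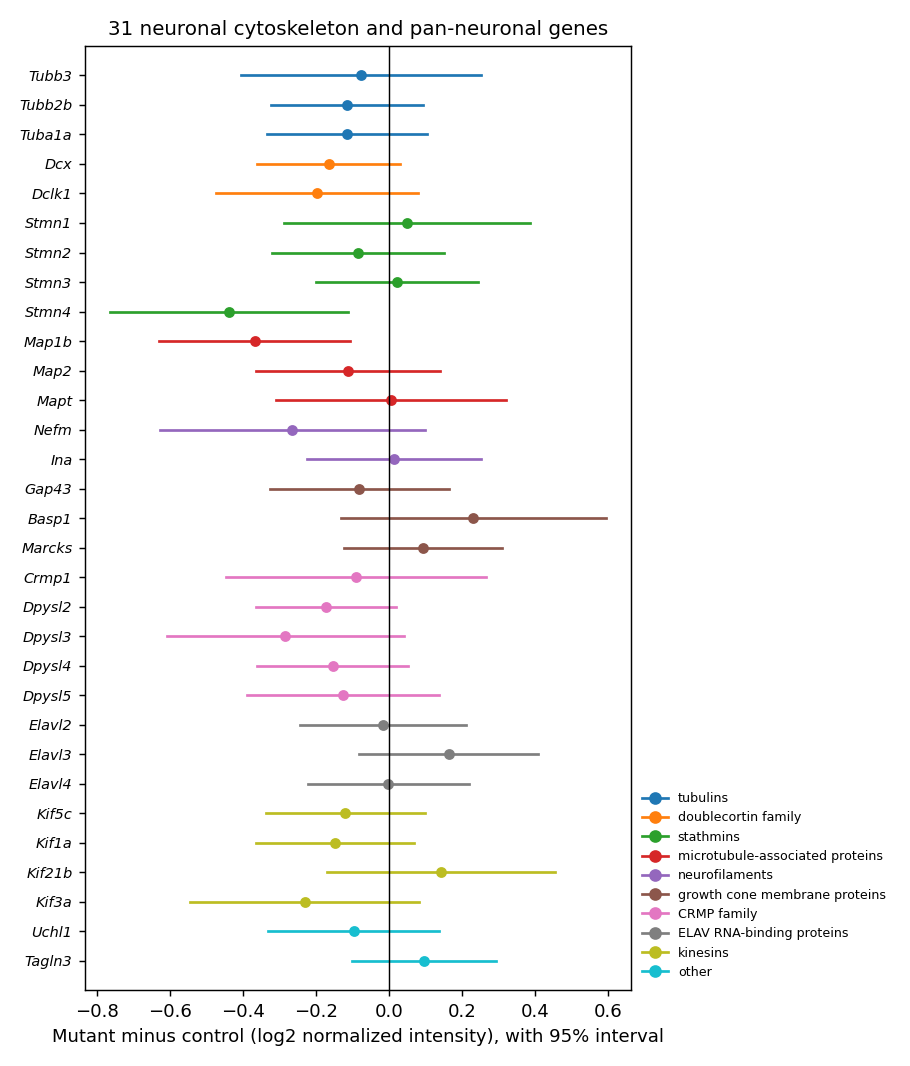
Difference of each of the 31 measured genes (mutant minus control, log2 normalized intensity), with points for the limma estimate and lines for its 95% interval, coloured by role. Only the intervals of Stmn4 (-0.76 to -0.11) and Map1b (-0.63 to -0.11) leave out 0, and neither gene passed the adjusted threshold.

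The differences were small but more of them were negative than positive. There were 22 negative and 9 positive values among the 31 genes (71% negative), where 46.7% of all genes tested were negative, and the median was -0.096, where the median over all genes tested was 0.013. Under median scaling in place of quantile normalization 18 of 31 were negative and their median was -0.023, while 30.9% of all genes were negative and the median of all was 0.084. The distance between the genes' median and that of all genes was -0.109 with quantile normalization and -0.107 with median scaling. These genes come from the same cells and the same 6 pools, so their signs are not independent, and their count was not tested. The 3 mutant values lay wholly below the 3 control values for Map1b, Dcx and Dpysl2 and wholly above for 0 genes. This share of 3 of 31 (9.68%) compares with 14.1% of all genes tested whose groups did not overlap, 6.45% with the mutants lower and 7.69% with the mutants higher. In such bulk tissue, fewer neurons and less of a transcript in each neuron cannot be told apart. Quantile normalization gives every array the same distribution of values, and a shift shared by all RNA would not appear.

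The tubulins are the building blocks of the microtubule. Tubb2b, the beta-tubulin of migrating neurons, had log2 values of 14.86, 14.82 and 14.90 on control arrays 5R, 6R and 7R and 14.86, 14.56 and 14.82 on mutant arrays 1R, 2R and 3R. Only mutant 2R lay apart, and the difference was -0.11 ± 0.096 (SE; adjusted p = 0.785). The raw intensity of this probe had a median of 29824, close to the brightest value on any array (29826 to 34982), so the scale leaves it little room to rise. Its 4 dimmer detected probes gave -0.076 to -0.27, all negative. Tuba1a, the main alpha-tubulin of newborn neurons, differed by -0.11 with its brighter probe and by -0.31 with its dimmer one (limma unadjusted p = 0.0150, adjusted p = 0.443 over all probes). Tubb3, the neuron-specific beta-tubulin often stained as a marker of neurons, differed by -0.076, but its only probe was dim, at a log2 mean of 5.52 in controls and 5.44 in mutants with a raw median of 94.6. The interval for Tubb3 was -0.41 to 0.25. Near-identical tubulin paralogs can share hybridisation, and the probe sequences were not used here.

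Doublecortin, encoded by Dcx, stabilises microtubules in migrating neurons, and Dclk1 encodes a kinase with the same tubulin-binding domains. Dcx had log2 values of 12.20, 12.29 and 12.10 on the control arrays and 12.01, 12.08 and 12.01 on the mutant arrays. All mutant values were below all control values, yet the difference of -0.16 ± 0.090 (SE) did not pass (adjusted p = 0.641). The second detected Dcx probe gave -0.28 (limma unadjusted p = 0.0307, adjusted p = 0.515 over all probes). Dclk1 differed by -0.20 (adjusted p = 0.706), with mutant 3R at 10.13 above all 3 controls.

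The stathmins did not move together. Stmn4, the stathmin also known as RB3, which sequesters tubulin, had the lowest difference of all 31 genes. Its log2 values were 9.15, 9.80 and 9.62 on the control arrays and 9.05, 8.97 and 9.23 on the mutant arrays. Control 5R lay among the mutants, while controls 6R and 7R lay above all of them. The difference was -0.44 ± 0.15 (SE; unadjusted p = 0.0122, adjusted p = 0.427), 1.35-fold lower, and it was -0.62 without control 5R (adjusted p = 0.207) and at its smallest -0.30 leaving out 1 array. The second Stmn4 probe gave -0.42. Stmn2, or SCG10, a stathmin of growing axons, had log2 values of 13.05, 13.40 and 13.34 on the control arrays and 13.06, 13.21 and 13.27 on the mutant arrays. These groups overlapped, with a difference of -0.084 ± 0.11 (SE; adjusted p = 0.864). Stmn3 differed by 0.023 and Stmn1, the stathmin also made by dividing cells, by 0.051, and Stmn1 turned to -0.13 without mutant 3R.

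Among the classical microtubule-associated proteins Map1b, which appears early in growing axons, had the lowest difference. Its log2 values were 12.32, 12.05 and 12.01 on control arrays 5R, 6R and 7R and 11.99, 11.59 and 11.69 on mutant arrays 1R, 2R and 3R. The groups did not overlap, but control 7R and mutant 1R lay next to each other. The difference was -0.37 ± 0.12 (SE; unadjusted p = 0.00955, adjusted p = 0.412), 1.29-fold lower in the mutants, and it ran from -0.48 to -0.27 leaving out 1 array. The smallest adjusted p of Map1b over all alternative fits was 0.0903, without mutant 1R. All 5 Map1b probes were detected and all 5 were negative, from -0.50 to -0.24. Map2, the protein of dendrites, differed by -0.11 (adjusted p = 0.828) and Mapt, or tau, the protein of axons, by 0.0060 (adjusted p = 0.995).

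Because Gata2 encodes a DNA-binding factor, the 250 bases upstream of the transcription start were read for the GATA motif, that is GATA with A or T before it and A or G after it, on both strands. RefSeq windows (GRCm38.p6) were at hand for 20 of the 34 genes, 32 windows in all, since some genes have several starts. A form of the motif was found in 3 of these windows (9.38%), against 26.5% of 32851 windows of the same length over all genes. Counted by gene it was 3 of 20, against 29.7% of 27025 genes. The 3 windows belong to Stmn3, Elavl2 and Dclk1, and none of these genes passed the test. The E-box CAGCTG, a palindrome bound by proneural bHLH factors, was found in 5 of the 32 windows (15.6%), against 13.0% of all windows. Counted by gene it was 4 of 20, against 14.7% of genes. A match is only a run of letters and the windows of a gene can overlap. The window of Map1b, the gene with the smallest p among those with a window, is shown with the 3 windows that held a GATA form, which is in capitals and starts at base -137 in Stmn3, -115 in Dclk1 and -218 in Elavl2, counted from the transcription start. In each of the 3 the form lies on the opposite strand. The Map1b window held neither motif.
Map1b, chr13:99516603-99516852, minus strand: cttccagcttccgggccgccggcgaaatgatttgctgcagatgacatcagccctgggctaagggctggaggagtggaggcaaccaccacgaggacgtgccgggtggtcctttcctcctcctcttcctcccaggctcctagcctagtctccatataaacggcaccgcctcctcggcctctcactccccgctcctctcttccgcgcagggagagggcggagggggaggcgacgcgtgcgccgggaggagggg
Stmn3, chr2:181314501-181314750, minus strand: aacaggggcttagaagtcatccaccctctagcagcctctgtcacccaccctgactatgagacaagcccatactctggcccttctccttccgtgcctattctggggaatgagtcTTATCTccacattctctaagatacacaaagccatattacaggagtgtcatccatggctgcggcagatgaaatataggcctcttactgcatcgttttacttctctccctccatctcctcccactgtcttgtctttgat
Dclk1, chr3:55461478-55461727, plus strand: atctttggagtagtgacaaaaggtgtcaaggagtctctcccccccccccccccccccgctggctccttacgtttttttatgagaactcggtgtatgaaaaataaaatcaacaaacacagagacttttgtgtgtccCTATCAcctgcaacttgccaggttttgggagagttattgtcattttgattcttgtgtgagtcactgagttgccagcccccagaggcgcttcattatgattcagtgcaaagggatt
Elavl2, chr4:91399985-91400234, minus strand: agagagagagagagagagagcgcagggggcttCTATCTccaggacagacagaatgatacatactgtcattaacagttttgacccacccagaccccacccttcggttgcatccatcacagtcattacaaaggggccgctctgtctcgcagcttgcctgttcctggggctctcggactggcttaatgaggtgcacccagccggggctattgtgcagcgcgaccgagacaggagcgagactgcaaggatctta

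The neurofilament genes gave few values. Ina, or alpha-internexin, the earliest neurofilament subunit to appear, had log2 values of 11.10, 10.95 and 10.71 on the control arrays and 10.89, 11.01 and 10.91 on the mutant arrays. The mutants lay inside the control range, with a difference of 0.014 ± 0.11 (SE; adjusted p = 0.980). Nefm, the medium neurofilament subunit, differed by -0.26 (adjusted p = 0.696; interval -0.63 to 0.098), and its 3 probes gave -0.26 to -0.014. Nefl, the light subunit, was not above background on any array.

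The growth cone proteins Gap43, Basp1 and Marcks bind calmodulin and the inner face of the membrane. Marcks, which crosslinks actin and is not limited to neurons, had log2 values of 13.03, 13.04 and 13.09 on the control arrays and 12.96, 13.20 and 13.29 on the mutant arrays. Mutants 2R and 3R lay above the controls and mutant 1R below them, and the difference was 0.094 ± 0.10 (SE; adjusted p = 0.833). Basp1 had the highest difference of the 31 genes, 0.23 (adjusted p = 0.746). Gap43, the best known marker of growing axons, differed by -0.081 (adjusted p = 0.880). It turned positive under median scaling, where the median of all genes was 0.084.

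The CRMP proteins carry semaphorin signals to microtubules in the growth cone, and all 5 CRMP genes had negative differences, but 0 of 5 passed. Crmp1 turned positive under median scaling, where the median of all genes was 0.084. Dpysl2, which encodes CRMP2 and binds tubulin dimers, had log2 values of 13.72, 13.87 and 13.78 on the control arrays and 13.54, 13.64 and 13.69 on the mutant arrays. The groups did not overlap, and the difference was -0.17 ± 0.089 (SE; adjusted p = 0.610). All 4 Dpysl2 probes were detected and gave a narrow range of -0.18 to -0.14. Dpysl3, which encodes CRMP4, had log2 values of 12.24, 12.37 and 12.28 on the control arrays and 12.32, 11.58 and 12.14 on the mutant arrays. Mutant 2R alone was far below the controls: the difference was -0.28 ± 0.15 (SE; adjusted p = 0.622) and it was -0.069 without mutant 2R. Dpysl4, which encodes CRMP3, had log2 values of 12.78, 12.92 and 12.74 on the control arrays and 12.75, 12.53 and 12.70 on the mutant arrays. Here too mutant 2R was lowest, and the difference was -0.15 ± 0.096 (SE; adjusted p = 0.689). Dpysl5 and Crmp1 differed by -0.13 and -0.090. A second, dim probe of Dpysl5, with log2 means of 5.94 and 5.42, gave -0.53 and the smallest p of all 66 detected probes (limma unadjusted p = 0.00485, adjusted p = 0.367 over all probes).

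The ELAV proteins bind AU-rich sequences in messenger RNAs and stabilise them in neurons. Elavl2, or HuB, had log2 values of 12.499, 12.679 and 12.867 on the control arrays and 12.598, 12.653 and 12.748 on the mutant arrays. The mutants lay inside the control range, and the difference was -0.015 ± 0.10 (SE; adjusted p = 0.978). Elavl4, or HuD, differed by -0.0015 (adjusted p = 0.998), and Elavl3, or HuC, a common marker of postmitotic neurons, by 0.16 (adjusted p = 0.730). The second probes of Elavl2 and Elavl4 gave -0.30 and -0.32 (limma adjusted p = 0.395 and adjusted p = 0.502 over all probes). Both probes of Elavl3 were positive. Under median scaling, where the median of all genes was 0.084, the differences of all 3 ELAV genes were positive.

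Of the kinesins, Kif1a, the motor of synaptic vesicle precursors, had log2 values of 13.05, 13.21 and 12.96 on the control arrays and 12.95, 12.79 and 13.03 on the mutant arrays. The groups overlapped through mutant 3R, and the difference was -0.15 ± 0.10 (SE; adjusted p = 0.724). Kif5c, a neuronal heavy chain of conventional kinesin, differed by -0.12. Kif3a, which also builds cilia, gave -0.23 with its brighter probe and 0.27 with its dimmer one, and 0.018 when its detected probes were averaged. Both detected probes of Kif21b were dim, and they gave 0.14 and -0.13, so neither gene has a settled direction. Of the remaining genes, Tagln3, a calponin-like protein of neurons, had log2 values of 11.82, 11.91 and 11.98 on the control arrays and 11.93, 12.00 and 12.07 on the mutant arrays. The groups overlapped, and the difference was 0.097 ± 0.091 (SE; adjusted p = 0.809). Uchl1, the neuronal ubiquitin hydrolase PGP9.5, differed by -0.096 (adjusted p = 0.842).

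Every detected probe was then read in place of 1 per gene. Of 66 detected probes 0 passed (limma, adjusted over all 19936 probes, where 0.145% passed), 48 were negative (72.7%, against 47.9% of all probes), and 13 had an unadjusted p under 0.05 (19.7%, against 8.84%). Of these 13, which belong to 9 genes, 12 were lower in the mutants and 1, a Map2 probe close to background, was higher. Probes of a gene share its transcripts, so these shares rest on fewer independent values than they seem. Of the 20 genes with at least 2 detected probes, 14 had only negative probes, 2 only positive ones (Mapt and Elavl3), and 4 had both signs (Map2, Dpysl4, Kif21b and Kif3a). Map2 was the most divided, from -0.36 to 0.80 over 6 probes. Its probe at 0.80 was above background on 3 of 6 arrays, with log2 means of 4.73 and 5.53. The Map2 probe at -0.36 had log2 values of 10.13, 10.15 and 10.17 on the control arrays and 10.11, 9.61 and 9.67 on the mutant arrays. Without mutant 1R it passed over all probes, at -0.52 (adjusted p = 0.0406), the only call of any of these probes over all 6 fits that left out 1 array.

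**Figure D2:**
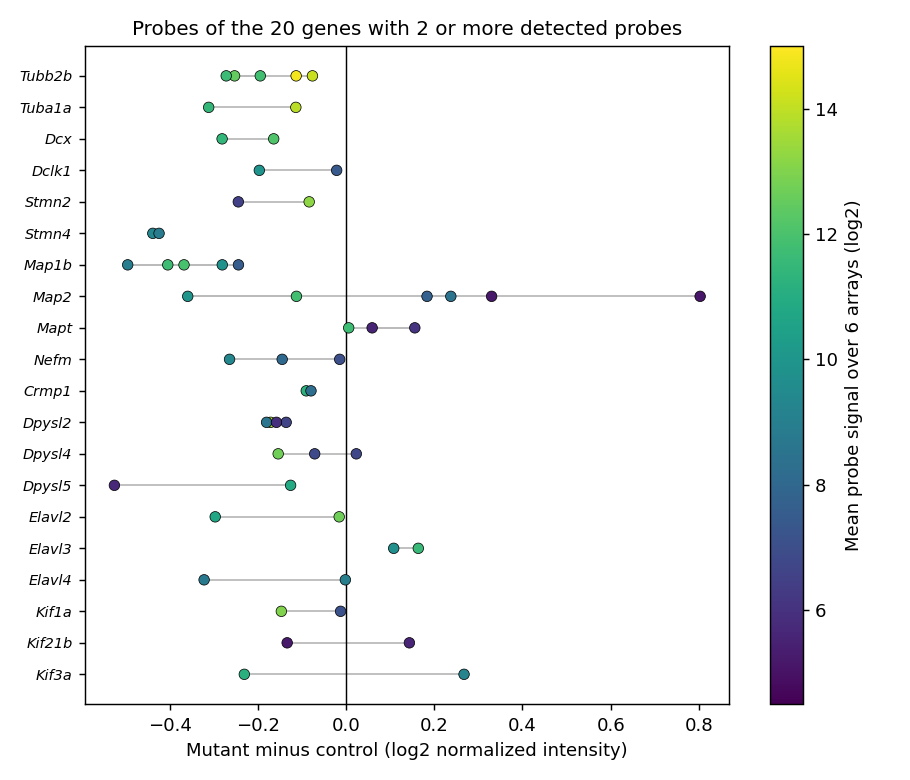
Differences (mutant minus control, log2 normalized intensity) of the detected probes of the 20 genes with at least 2 such probes, 1 point per probe, coloured by the probe's mean signal. The 5 Map1b probes lie between -0.50 and -0.24, while the 6 Map2 probes span -0.36 to 0.80.

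The pools of a group differed among themselves. Each gene was centred on its mean over the 6 arrays and the 31 genes were averaged on each array. The mean was 0.029 on control 5R, 0.11 on control 6R and -0.013 on control 7R. On the mutant arrays it was -0.056 for 1R, -0.13 for 2R and 0.055 for 3R. Mutant 3R thus lay above 2 of the 3 controls, and the groups overlapped. Control 6R gave the highest of the 6 values for 10 genes and the lowest for 0, whereas mutant 2R gave the lowest for 12 and the highest for 0. The median SD of a gene was 0.13 among control pools and 0.16 among mutant pools, and it was larger among the mutants for 22 of 31 genes. The median difference of the 31 genes was -0.056 without mutant 2R and -0.14 without mutant 3R.

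**Figure D3:**
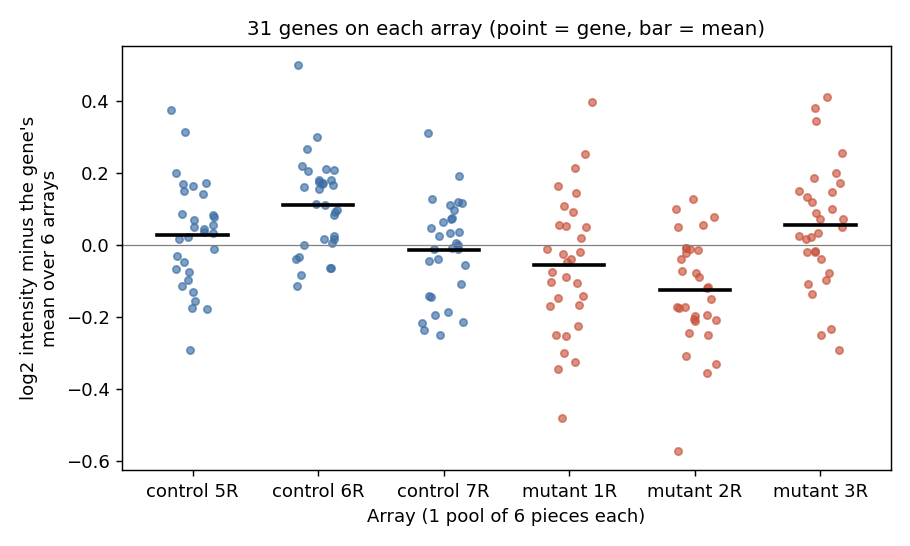
The 31 genes on each array as log2 normalized intensity minus the gene's mean over the 6 arrays, with 1 point per gene and a bar for the mean of the array. The means run from -0.13 on mutant 2R to 0.11 on control 6R, and mutant 3R at 0.055 lies above controls 5R and 7R.

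Further genes of the same families were read in the same fit, and none of them passed either. Of 7 other measured tubulins 0 passed, with a median of -0.016, and the beta-tubulin Tubb4b at -0.14 had the smallest p (adjusted p = 0.692). Of 18 further microtubule regulators 0 passed, 10 were negative and their median was -0.016, the extremes being Clasp2, which holds growing microtubule ends, at 0.43 (adjusted p = 0.311) and Map4 at -0.28 (adjusted p = 0.591). Of 15 further motor genes 0 passed and 12 were negative, with a median of -0.085. Kif2c, a mitotic kinesin, was the most positive of these at 0.36 (adjusted p = 0.461), and Kif2a, which trims microtubules in axon branches, the most negative at -0.28 (adjusted p = 0.550). Of 12 further growth cone genes 0 passed and 11 were negative, with a median of -0.16, and Rufy3 at -0.28 had the smallest p (adjusted p = 0.513). Under median scaling the number of negative genes was 2 of 7 for the tubulins, 4 of 18 for the regulators, 8 of 15 for the motors and 9 of 12 for the growth cone genes. Of all genes 30.9% were negative under that scaling.

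Neuronal genes outside the cytoskeleton were also mostly negative. Of 16 such genes 0 passed and 15 were negative (93.8%, against 46.7% of all genes tested), with a median of -0.17. Under median scaling 14 were negative, where 30.9% of all genes were. A limma unadjusted p under 0.05 was reached by 4 (25%, against 8.83% of all genes tested). In 3 the groups did not overlap, all with the mutants lower (18.8%, against 14.1%). Syt1, the calcium sensor of synaptic vesicles, differed by -0.62 (adjusted p = 0.0614), the adhesion molecule Ncam1 by -0.53 (adjusted p = 0.106) and the splicing factor Celf4 by -0.39 (adjusted p = 0.311). On the arrays their centred mean was 0.15, 0.19 and -0.020 in controls 5R, 6R and 7R and -0.16, -0.22 and 0.053 in mutants 1R, 2R and 3R, and the groups overlapped through mutant 3R as for the cytoskeletal genes. Whether this list differs from the 31 genes was not tested.

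Other cell classes in the same pools were set beside these values. Of 15 neural progenitor genes 0 passed, with 8 negative and a median of -0.00090. Under median scaling 3 were negative with a median of 0.089, where the median of all genes was 0.084. The cyclin Ccnd1 at 0.34 (adjusted p = 0.292) and the Notch target Hes5 at 0.37 (adjusted p = 0.331) had the smallest p. Of 10 proliferation genes 0 passed, 9 were positive and 1 was negative (10%, against 46.7% of all genes tested), with a median of 0.19. Under median scaling all 10 were positive, with a median of 0.28, where the median of all genes was 0.084. A limma unadjusted p under 0.05 was reached by 1 (10%, against 8.83% of all genes). In 3 the groups did not overlap, all with the mutants higher (30%, against 14.1%). The centred mean of the proliferation genes was lowest on control 6R, at -0.29, and highest on mutants 1R and 2R, at 0.14 on each. The pool highest in the cytoskeletal genes was thus the lowest in these, and the pool lowest in the former was among the highest. The progenitor genes followed this only in part, with 0.068, -0.13 and -0.060 on controls 5R, 6R and 7R. On mutants 1R, 2R and 3R they averaged 0.12, -0.020 and 0.025. Whether these lists mirror each other was not tested. Of 8 listed erythroid markers 7 were measured, 0 passed and 6 were positive, with a median of 0.25. Of these 7, 4 had a limma unadjusted p under 0.05 (57.1%, against 8.83% of all genes tested). In 4 the groups did not overlap (57.1%, against 14.1%), 3 with the mutants higher and 1 with the mutants lower. Their summed linear levels were 57480 to 64258 in controls and 58153 to 67710 in mutants. Of 8 listed endothelial and mural markers 6 were measured, 0 passed and 3 were negative, with summed linear levels of 904 to 1037 in controls and 818 to 1040 in mutants. The corresponding levels were 219 to 227 and 215 to 233 for the 3 measured of 8 mesenchyme and meninges markers, and 363 to 410 and 357 to 364 for the 6 measured of 8 microglia markers, with 0 passing in either. The part of these cell classes in the neuronal values was not tested.

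The serotonergic genes were the only list with called genes. Of 10 measured genes 9 were negative, where 46.7% of all genes tested were. Whereas 0.171% of 10524 tested genes passed, 6 of these 10 did, all of them lower in the mutants. Of those above background on all arrays, Slc17a8, a vesicular glutamate transporter, fell by 3.07 (adjusted p = 1.78e-05), Ddc, the enzyme that makes serotonin from its precursor, fell by 0.84 (adjusted p = 0.0205), and Gch1, the first enzyme of tetrahydrobiopterin synthesis, fell by 0.75 (adjusted p = 0.0265). These genes had passed the threshold, so their falls were large by selection. Their size cannot be set against that of genes that did not pass. The smallest of these falls lay within the Stmn4 interval, whose outer bound was -0.76. The list was chosen with earlier results of these data known. Genes of the list that were not above background on all arrays could pass the detection filter through the controls alone. The 10 serotonergic genes, including any that passed the filter through the controls alone, had a median of -0.84. Their summed linear level was 4114 to 5306 in controls and 1208 to 1495 in mutants. Because of that choice and filter, these values cannot be set against those of the 31 genes. The summed linear level of the 31 genes was 150173 to 155488 in controls and 132766 to 151317 in mutants, ranges that overlap.

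**Figure D4:**
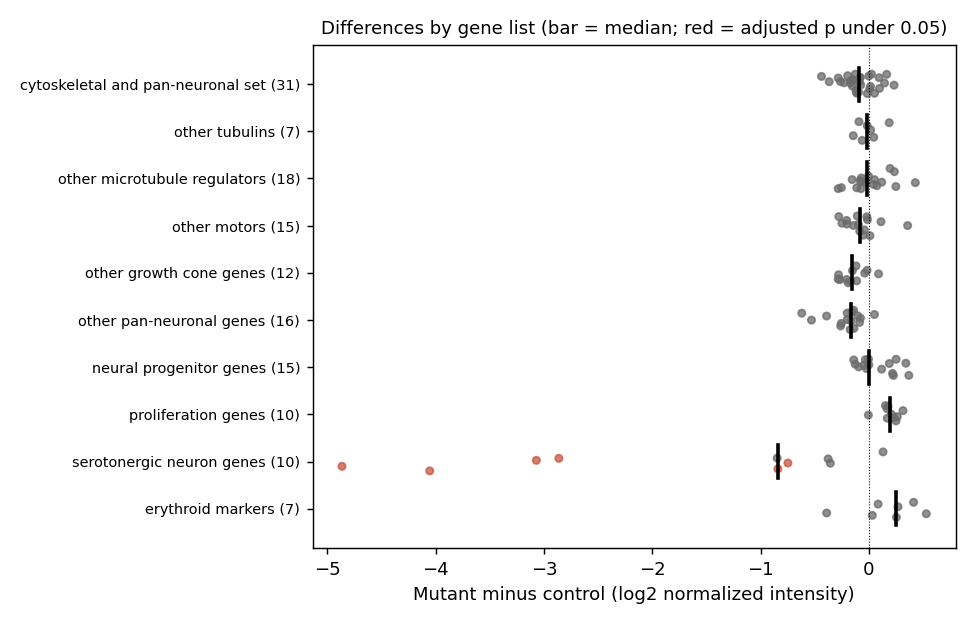
Differences (mutant minus control, log2 normalized intensity) of the measured genes of each list, 1 point per gene, with a bar for the median and the number of genes in brackets. The 31 cytoskeletal and pan-neuronal genes lie between -0.44 and 0.23 with 0 called. Of 10 serotonergic genes, a list chosen with earlier results known, 6 were called (red), where 0.171% of all genes tested were.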

How the data were processed

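RNA of 6 pools was extracted with Trizol and labelled with biotin per the labels' protocols. The authors deposited probe intensity on a linear scale, not normalized per the file headers, with a detection p-value for each probe and array; the submitters' processing notes name GenomeStudio 1.0. Column names give the genotype and an array number found in no title, and columns were used as replicates of a group only. By rank order each column of the second, normalized table described next matched 1 array of its group (Spearman 1, at most 0.950 with any other array). That match was not used. A second deposited table holds normalized intensity (all column medians 86.4, with 95.3% of sorted positions equal in all columns, relative tolerance 1e-06, as after quantile normalization); its scale was linear, it was used as an alternative, and its replicate numbers did not pair the samples.

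Background correction and normalization used the neqc function of limma 3.58.1 under R 4.3.3 (normexp with detection p-values, offset 16, then quantile and log2), which widens folds of dim probes. A probe was kept if its detection p-value was below 0.05 on 3 or more arrays (19936 of 45276). Symbols came from a platform annotation (34881 probes with 1 symbol, 18 with several, 10377 with none, left unnamed). The model (lmFit, eBayes with trend) was fitted over all kept probes, and p-values were adjusted (Benjamini-Hochberg) over 10524 genes, each with its brightest probe. The fit was tested on simulated data with independent noise and added differences larger than those of any cytoskeletal or pan-neuronal gene here. That test does not bear on differences of the size reported here. P-values come from limma's moderated t-test. It sets the group difference against the spread between pools, drawn toward an intensity trend over all kept probes.

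The genes and lists were chosen with earlier results of these data known. Values for every array are given for the 6 genes with the smallest p and the brightest gene of each role group; of other lists, genes past the threshold or up to 3 with the smallest p are named, some as extremes. Alternatives covered background, offset, scaling, the normalized table, detection filters, mean of probes, no trend, array weights, leaving out 1 array, a replicate block and a threshold of 0.1.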

Additional observations from a re-analysis of the deposited data

How the results depend on the processing

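Under all 17 alternatives 0 of the measured cytoskeletal and pan-neuronal genes passed. Of their probes 0 passed, except for 1 Map2 probe without mutant 1R, so that the count leaving out 1 array was 0 to 1. The median difference of -0.096 moved to -0.023 under median scaling, a move about the size of the spread between pools (SD 0.073). The median of all genes moved with it, from 0.013 to 0.084. The distance between these medians was -0.109 before and -0.107 after. Leaving out 1 array, the median difference ran from -0.14 to -0.056. The number of changed genes over the whole array was 18, and leaving out 1 array it was 12 to 52, with 52 without mutant 1R. Called genes of the companion lists numbered 6. Of 208 differences of the 13 genes given array by array, 202 kept their sign. The other detection filters and the fit without the intensity trend left these differences unchanged. The replicate block repeated those of the authors' normalized table, so part of this count was fixed in advance. Leaving out 1 array, Elavl2 ran from -0.11 to 0.077 and Ina from -0.091 to 0.10. The sign of Elavl2 turned to 0.084 under median scaling, 0.0050 with array weights, 0.077 without control 7R and 0.018 without mutant 1R, and that of Ina to -0.091 without control 7R and -0.022 without mutant 2R; neither gene passed in any of these fits. Replicate numbers in the titles are shared between groups, but same-numbered samples did not deviate together (correlations -0.039, -0.085 and -0.30 on the authors' normalized table). With the replicate number as a block on those values, 14 genes changed in place of 18, 0 of the 31 genes passed, and their median was -0.086. Dim probes, such as those of Tubb3 and Kif21b, limit what their genes can show, as signal over background is low there.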
